A study of Homo sapiens with 6 samples.

Results

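The interstitial collagens and fibronectin, the proteins that build the matrix between cells, were examined as 10 genes, chosen by symbol from the deposited table: COL1A1, COL1A2, COL3A1, COL5A1, COL5A2, COL6A1, COL6A2, COL6A3, COL12A1 and FN1. Each symbol matched a row, so all 10 were found among 60546 gene identifiers. The cells were HCT-116, an established human colon carcinoma line that the labels give as wild type, carrying the viral vector PMSCV either with the GOLPH3 cDNA (3 libraries, labelled GOLPH3) or empty (3 libraries, labelled Vector). The study's methods state puromycin selection for the GOLPH3-overexpressing line and do not state it for the line with the empty vector. RNA was taken from different generations of each, so the libraries of a group are samples of the same stable line. The p-values concern such libraries and not independently made lines, and those from limma also draw on a variance shared over genes. The titles add a number after the letter P, whose meaning the labels do not explain: P8, P12 and P13 for the libraries labelled GOLPH3, and P12, P11 and P13 for those labelled Vector. All cells were grown in DMEM with fetal bovine serum and lysed in Trizol, and a single treatment is given for all of them.

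Type I and type III collagen form the main fibrils of connective tissue, and type V collagen is built into type I fibrils and limits their width. Type VI collagen assembles from several different chains into beaded filaments close to the cell surface, type XII collagen binds along the surface of fibrils, and fibronectin is a secreted glycoprotein that cells bind through integrins and on which collagen is deposited. In the colon these proteins come mainly from fibroblasts of the stroma, while fibronectin is also used as a marker of epithelial cells that take on mesenchymal features.

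The values are normalized reads, that is, whole reads divided by a size factor per library, and were compared as log2(normalized reads + 1), which understates changes of low genes. The 6 libraries held between 15708846 and 21900764 reads, with a median of 18088184 for GOLPH3 and 16507112 for Vector, and a count of 0 allows up to 3 reads (2.47 to 3.29 normalized reads), a limit that covers counting error only. No rise of the GOLPH3 transcript could be detected under the GOLPH3 label. It had 1629.5, 1272 and 1383 normalized reads there, against 1968, 1892 and 1472 in Vector, a log2 difference of -0.31 (95% interval -0.91 to 0.28, limma adjusted p = 0.609, exact two-sided permutation p = 0.2). The direction of every difference is therefore drawn from the labels alone. Of 15 colon epithelial markers, 6 (EPCAM, CDH1, KRT8, KRT18, KRT19 and CDX2) had at least 50 normalized reads in every library, while KRT20 was at 0 in all and the others were low, and the list summed to 62858 to 134432 normalized reads in GOLPH3 and 30050.0 to 41161 in Vector. Most of that sum was KRT8, KRT18 and KRT19, which like EPCAM and CDH1 were higher in GOLPH3 without overlap. CDX2 overlapped, at 247, 261 and 358 normalized reads in GOLPH3 and 415, 184 and 897 in Vector. Of 12 fibroblast markers, DCN and DPT were at 0 in all 6 libraries, and the summed level was 188 to 242 normalized reads in GOLPH3 and 382 to 902 in Vector. That excess lay in PDPN and TWIST2, at 0 in GOLPH3 and at 36.1 to 561 normalized reads in Vector: without them the other 10 summed to 127 to 197 in Vector. THY1 (5.37 to 8.54 against 1.03 to 2.19) and ACTA2 (34.4 to 48.0 against 16.5 to 30.04) were higher in GOLPH3 without overlap. PDGFRA (0 to 0.82 against 5.15 to 24.9) and LUM (0 to 2.15 against 3.09 to 8.76) were lower without overlap. THY1, PDGFRA and LUM were under the limit of 3 reads in every library of the lower group. A list of 12 genes known from the embryonic kidney line HEK293 summed to 195 to 210 normalized reads in GOLPH3, where 5 to 8 of them were at 0, and to 8629, 4793 and 14000 in Vector, where none was at 0 and 11 had at least 50 in each library. The part of these 3 marker lists in the differences of the members was not tested.

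Reads per kilobase of exon, the scale on which genes can be compared, placed the type VI chains highest. In GOLPH3 the mean level fell from COL6A1 (465 normalized reads per kilobase) through COL6A2 (423), COL12A1 (211), COL1A1 (116), FN1 (34.2), COL5A2 (10.5), COL6A3 (2.04), COL5A1 (0.780) and COL3A1 (0.577) to COL1A2 (0.0641). In Vector the order was COL6A1 (461), COL6A2 (266), COL12A1 (83.3), FN1 (70.0), COL1A1 (60.9), COL5A1 (23.5), COL5A2 (8.57), COL3A1 (3.29), COL6A3 (0.616) and COL1A2 at 0. Among neighbours in the GOLPH3 order, the ranges over libraries overlapped for COL6A1 and COL6A2, for COL12A1 and COL1A1, for COL5A1 and COL3A1, and for COL3A1 and COL1A2. Among neighbours in the Vector order, only COL6A2 and COL12A1, COL5A2 and COL3A1, and COL6A3 and COL1A2 did not overlap, and the last pair lies near the limit of detection. On this level per kilobase COL5A1 came below COL5A2 and COL6A3 in GOLPH3 and above both in Vector. With the length of the longest transcript in place of all exons, COL6A2 came before COL6A1 in GOLPH3, at 659 against 587 normalized reads per kilobase. In Vector the same change placed FN1 (132) before COL1A1 (88.8) and COL12A1 (88.7). The 10 genes together took 0.0479% to 0.0555% of all normalized reads in GOLPH3 and 0.0287% to 0.0564% in Vector, and these ranges overlapped.

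**Figure D1:**
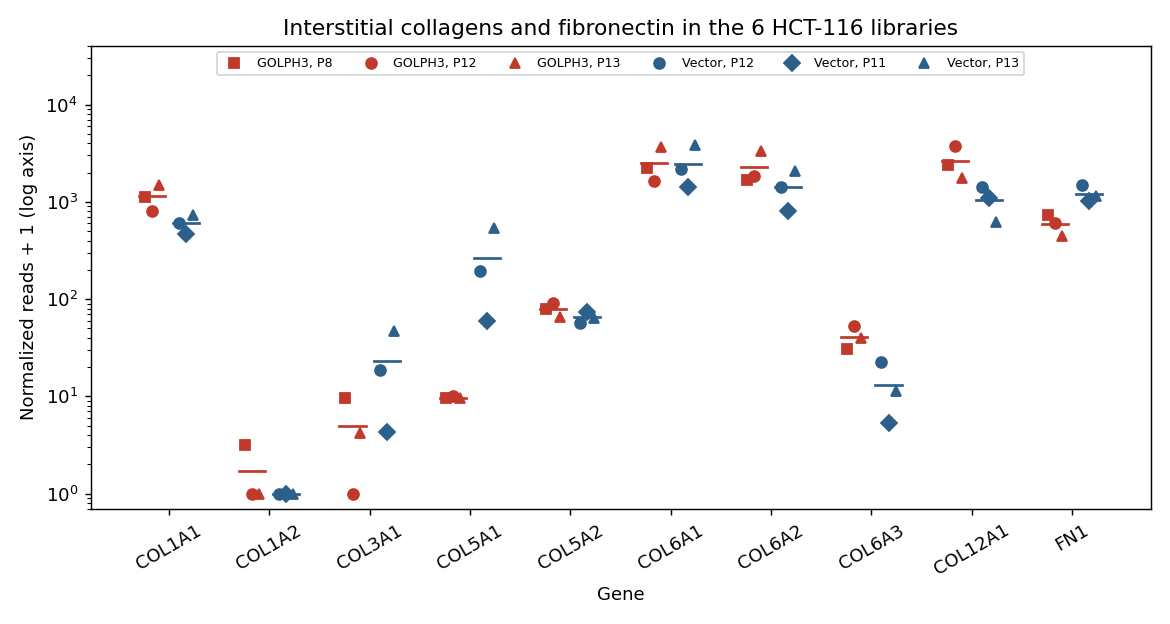
Normalized reads plus 1 (log axis) of the 10 genes in the 6 HCT-116 libraries, with red points for GOLPH3, blue points for Vector, a marker shape for each number after P, and a bar at each group mean. COL5A1 lies between 8.54 and 9.07 normalized reads in GOLPH3 and between 58.1 and 537 in Vector, and COL12A1 and FN1 differ in opposite directions without overlap.

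In the comparison of the labelled groups, 9 of the 10 genes reached 1 normalized read in 3 or more libraries and were tested, among 26536 genes in all. A single member, COL5A1, passed an adjusted p of 0.05 and was lower in GOLPH3, where 5.07% of all genes tested passed (253 higher and 1093 lower). The groups did not overlap for 5 members, COL1A1, COL6A3 and COL12A1 higher and COL5A1 and FN1 lower, against 22.0% of all genes tested. At an unadjusted p under 0.05 with a log2 difference over 1, there were also 5 members, COL6A3 and COL12A1 higher and COL3A1, COL5A1 and FN1 lower, against 14.2% of all genes. The median log2 difference was 0.28 over the 9 members tested and 0.02 over all genes tested.

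Type I collagen was represented by COL1A1 alone. COL1A1 (ENSG00000108821, chromosome 17 from 50183289 to 50201632, minus strand, GRCh38) had 1129, 799.9 and 1499 normalized reads in GOLPH3 and 601.1, 465.6 and 726.0 in Vector. Every library labelled GOLPH3 was above every library labelled Vector, although the GOLPH3 library at P12 was close to the Vector library at P13. The means were 1143 ± 350 and 598 ± 130 (SD, n = 3 each), with a log2 difference of 0.91 (standard error 0.32, 95% interval 0.21 to 1.61) and an adjusted p of 0.151 from limma, so the difference did not pass the threshold. Within the pairs that share a number it was 0.41 at P12 and 1.04 at P13. COL1A2 (ENSG00000164692, chromosome 7 from 94394561 to 94431232, plus strand), whose chain joins that of COL1A1 in the type I trimer, had 2 reads in the GOLPH3 library at P8 and none in the other 5, so neither group was above the limit of 3 reads and no fold is given.

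COL3A1 (ENSG00000168542, chromosome 2 from 188974320 to 189012746, plus strand), the only chain of type III collagen, had 8, 0 and 3 reads in GOLPH3 (8.59, 0 and 3.20 normalized) and 17, 3 and 54 in Vector (17.5, 3.29 and 46.3 normalized). The groups overlapped, and both libraries at P12 and P13 in Vector were above all of GOLPH3. The log2 difference was -2.18 (standard error 0.99, 95% interval -4.34 to -0.03, adjusted p = 0.278 from limma). The counts were low and the interval is wide.

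COL5A1, the regulatory chain of type V collagen, showed the one difference that passed. The gene (ENSG00000130635) lies on chromosome 9 from 134641774 to 134844843 on the plus strand. It had 8, 11 and 8 reads in GOLPH3, or 8.59, 9.07 and 8.54 normalized reads, and 187, 53 and 626 reads in Vector, or 192.5, 58.1 and 537.2 normalized. The GOLPH3 libraries lay within a narrow range at a low level, while those of Vector differed 9.25-fold among themselves, and the lowest was still well above GOLPH3. The means were 8.73 ± 0.29 and 263 ± 247 (SD, n = 3 each), so the mean of Vector was 30.1-fold higher, or 14.3-fold without the Vector library at P13. The log2 difference was -4.24 (standard error 0.68, 95% interval -5.73 to -2.74, Benjamini-Hochberg adjusted p = 0.00234 by limma). It passed in all 15 alternatives, with log2 differences from -5.05 (without Vector replicate 2) to -3.46 (without Vector replicate 3). Adjusted p ran from 1.33e-15 (limma with the number after P as a block, which rests on 2 pairs) to 0.0204 (limma without Vector replicate 3). The order of the Vector libraries in COL5A1 (P13, then P12, then P11) was also that of the summed HEK293-like markers and of 677 of the 1093 genes called lower (61.9%). Single markers of that list, such as VIM and NEFM, had other orders, and the share of all genes tested with this order was not computed. The part of this order in the COL5A1 difference was not tested, and in bulk RNA fewer cells of a type and less RNA per cell cannot be told apart.

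COL5A2 (ENSG00000204262, chromosome 2 from 189031896 to 189225312, minus strand), the partner chain of COL5A1 in type V collagen, had 78.4, 90.7 and 65.1 normalized reads in GOLPH3 and 55.6, 73.4 and 62.6 in Vector. The groups overlapped, and all 6 libraries fell between 55.6 and 90.7. Its log2 difference was 0.28 (95% interval -0.58 to 1.14, adjusted p = 0.769 from limma), so a change of about the size of that in COL5A1 lies outside the interval. As a ratio of levels per kilobase, COL5A1 was 7.30%, 6.66% and 8.74% of COL5A2 in GOLPH3 and 231%, 52.7% and 571% in Vector. The log2 ratio differed by -4.67, with an exact two-sided permutation p of 0.1, the smallest that 3 libraries against 3 can give. COL5A2 lies 19149 bases from COL3A1 on the opposite strand, and the exons of the members did not overlap those of an annotated antisense gene.

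The promoter sequences of the member that passed (COL5A1), of the most abundant member that was higher in GOLPH3 without overlap (COL12A1), and of a type VI chain (COL6A2) are shown here, as the 250 bases before the gene start in RefSeq on GRCh38.p14, 5′ to 3′ on the gene's strand. Capitals mark matches on either strand to GGGCGG (a GC box), CCAAT or TATAAA, with overlaps allowed. COL5A1 spans chr9:134641553-134641802 (plus strand), COL12A1 spans chr6:75206054-75206303 (minus strand) and COL6A2 spans chr21:46097862-46098111 (plus strand).
COL5A1: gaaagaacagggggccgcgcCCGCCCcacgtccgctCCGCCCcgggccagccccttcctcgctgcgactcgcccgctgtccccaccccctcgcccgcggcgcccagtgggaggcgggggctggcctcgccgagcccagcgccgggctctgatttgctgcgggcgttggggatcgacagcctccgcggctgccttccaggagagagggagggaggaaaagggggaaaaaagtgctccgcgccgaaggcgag
COL12A1: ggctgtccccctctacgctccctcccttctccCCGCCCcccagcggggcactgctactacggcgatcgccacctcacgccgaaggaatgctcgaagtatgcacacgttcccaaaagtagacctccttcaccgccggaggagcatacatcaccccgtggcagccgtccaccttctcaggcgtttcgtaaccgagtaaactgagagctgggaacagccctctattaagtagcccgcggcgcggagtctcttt
COL6A2: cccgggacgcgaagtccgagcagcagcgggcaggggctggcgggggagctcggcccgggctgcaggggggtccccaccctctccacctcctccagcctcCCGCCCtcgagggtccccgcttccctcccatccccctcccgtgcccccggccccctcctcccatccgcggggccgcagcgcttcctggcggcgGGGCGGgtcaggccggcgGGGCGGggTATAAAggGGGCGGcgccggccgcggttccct
The COL5A1 window was 74.0% G and C with 29 CpG and 2 GC boxes, that of COL12A1 61.2% with 21 CpG and 1 GC box, and that of COL6A2 79.6% with 28 CpG, 4 GC boxes and 1 TATAAA. Of the other members with an entry, FN1 had 32 CpG, 6 GC boxes and 1 CCAAT, while COL6A3 had 3 CpG and none of these motifs. By the gene coordinates given here, which come from another annotation, the windows of COL5A1, COL6A2, FN1 and COL6A3 reach into the gene. That of COL6A3 does so for most of its length. Among 35116 promoter windows of this length the median was 11 CpG, and 42.6% held GGGCGG, 32.0% CCAAT and 10.7% TATAAA. These matches describe the letters of the windows and are not binding sites, and the members that were higher and lower in GOLPH3 both included windows with GC boxes. COL1A1, COL1A2, COL3A1, COL5A2 and COL6A1 had no entry.

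The chains of type VI collagen differed in level and are taken in turn. COL6A1 (ENSG00000142156, chromosome 21 from 45981737 to 46005050, plus strand) had 2220, 1624 and 3616 normalized reads in GOLPH3 and 2169, 1413 and 3801 in Vector. The groups covered the same range, and in each the library at P13 was the highest. The log2 difference was 0.05 (standard error 0.40, 95% interval -0.82 to 0.92, adjusted p = 0.965 from limma), with -0.42 within P12 and -0.07 within P13. It turned negative under quantile normalization (-0.03) and with the number after P as a block (-0.24).

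COL6A2 (ENSG00000142173), 93046 bases from COL6A1 on the same strand and spanning 46098097 to 46132849, had 1685, 1855 and 3299 normalized reads in GOLPH3 and 1426, 812.9 and 2067 in Vector. The groups overlapped, since the Vector library at P13 was above the GOLPH3 libraries at P8 and P12. The means were 2279 ± 887 and 1435 ± 627 (SD, n = 3 each), and the log2 difference of 0.70 (95% interval -0.13 to 1.54) had an adjusted p of 0.383 from limma. Relative to COL6A1, however, the groups separated. Per kilobase, COL6A2 was 75.3%, 113% and 90.5% of COL6A1 in GOLPH3 and 65.2%, 57.1% and 54.0% in Vector. The difference of the log2 ratio was 0.65, again with an exact permutation p of 0.1, the smallest possible, and over the 2 ratios tested the Benjamini-Hochberg adjusted value was also 0.1.

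COL6A3 (ENSG00000163359, chromosome 2 from 237324003 to 237414375, minus strand), the largest chain of type VI collagen, was a minor transcript here. It had 28, 63 and 36 reads in GOLPH3 (30.1, 52.0 and 38.4 normalized) and 21, 4 and 12 in Vector (21.6, 4.38 and 10.3 normalized). All GOLPH3 libraries were above all Vector libraries, by a small margin between P8 and the Vector library at P12. The log2 difference was 1.85 (standard error 0.61, 95% interval 0.51 to 3.19, adjusted p = 0.123 from limma). Per kilobase it reached 0.289% to 0.871% of COL6A1 in GOLPH3 and 0.0737% to 0.271% in Vector, a ratio given without a test.

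**Figure D2:**
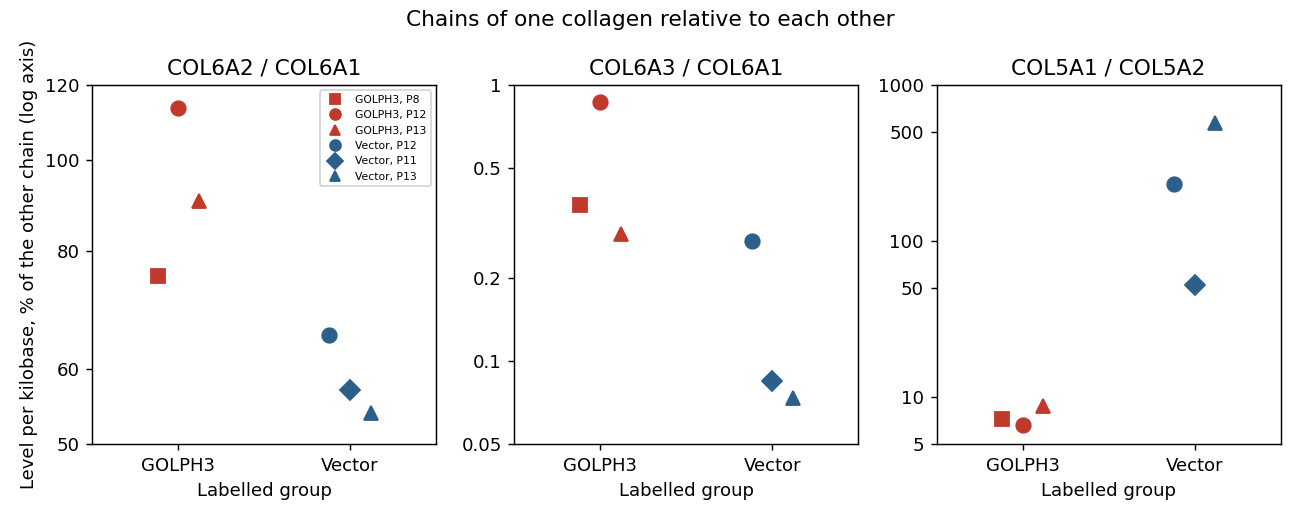
Level per kilobase of a chain as a percentage of another chain of the same collagen (log axes, with a different range in each panel), by labelled group, with a point for each library and a shape for each number after P. COL6A2 relative to COL6A1 lies between 75.3% and 113% in GOLPH3 and between 54.0% and 65.2% in Vector, and COL5A1 relative to COL5A2 lies under 10% in GOLPH3 and at 52.7% or more in Vector.

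COL12A1 (ENSG00000111799, chromosome 6 from 75084326 to 75206051, minus strand), which encodes type XII collagen, had 2385, 3766 and 1741 normalized reads in GOLPH3 and 1413, 1086 and 621.3 in Vector. All GOLPH3 libraries were above all Vector libraries. The means were 2631 ± 1035 and 1040 ± 398 (SD, n = 3 each), a ratio of 2.53. The log2 difference was 1.34 (standard error 0.38, 95% interval 0.53 to 2.16) with an adjusted p of 0.0656 from limma, and it was 1.41 within P12 and 1.49 within P13. This missed the threshold, and in 4 of the 15 alternatives it passed: DESeq2 on the recovered reads (adjusted p = 0.0182), no filter (0.0484), the replicate block (0.0450) and the number after P as a block (1.70e-09), in a range that reached 0.210. The last of these fits rests on 2 pairs and called 22.9% of all genes tested.

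FN1 (ENSG00000115414, chromosome 2 from 215360440 to 215436172, minus strand) differed in the other direction. It had 723.5, 610.2 and 440.9 normalized reads in GOLPH3 and 1476, 1017 and 1144 in Vector, and the groups did not overlap. The means were 592 ± 142 and 1212 ± 237 (SD, n = 3 each), so Vector was 2.05-fold higher. With a log2 difference of -1.05 (standard error 0.30, 95% interval -1.71 to -0.38), -1.27 within P12 and -1.37 within P13, the adjusted p was 0.0760 from limma. It passed in 3 of the 15 alternatives, DESeq2 (adjusted p = 0.0389), the number after P as a covariate (0.0270) and as a block (7.20e-08), in a range that reached 0.350. The block fit rests on 2 pairs and called 22.9% of all genes tested. FN1 in Vector was highest at P12 and lowest at P11. The summed HEK293-like markers were highest at P13 and also lowest at P11. Of that list VIM and EYA1 had the order of FN1, while other markers, such as IRS4 and NEFM, did not. The part of these orders in the FN1 difference was not tested.

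**Figure D3:**
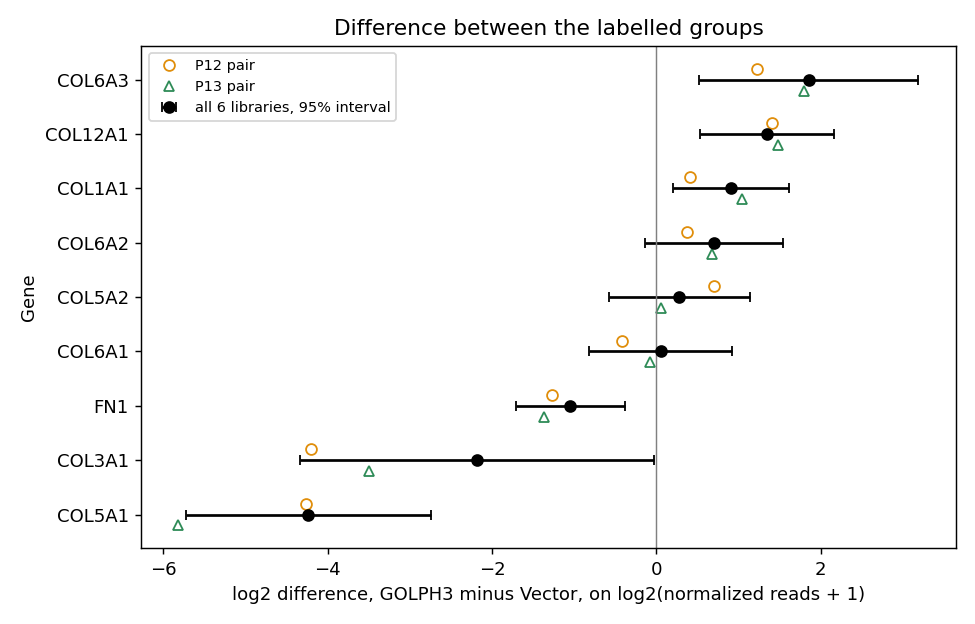
Differences between the labelled groups, GOLPH3 minus Vector, on log2(normalized reads + 1) for the 9 genes tested, with the 95% interval from all 6 libraries (black) and the differences of the pairs at P12 (orange circles) and P13 (green triangles). The interval of COL5A1 runs from -5.73 to -2.74, those of COL12A1 and FN1 lie on opposite sides of 0, and that of COL6A1 is centred near 0.

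The levels of some members also differed by the number after P. COL1A1, COL6A1 and COL6A2 were highest at P13 in both groups, 3 of 9 members against 18.5% of all genes tested. For COL6A1 the level at P13 was 2.23 times that at P12 in GOLPH3 and 1.75 times in Vector, and for COL6A2 it was 1.78 and 1.45 times. COL12A1 and COL6A3 were highest at P12 in both groups, 2 of 9 members against 14.0% of all genes, and COL12A1 was also lowest at P13 in both, 1 of 9 against 15.7%. None of these shares was tested against that of all genes. The level of COL12A1 at P12 was 2.16 times that at P13 in GOLPH3 and 2.27 times in Vector. A fit with the number after P as a block called 7 of the 9 members, all but COL5A2 and COL6A1, where 22.9% of all genes passed. In that fit the libraries at P8 and P11 have no partner, so it rests on 2 pairs, and the meaning of the number is not known. Its p-values therefore lean on the prior variance more than on the spread between libraries.

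Other genes whose profile over the 6 libraries was most like that of a member were sought among 12662 genes with a mean of at least 50 normalized reads, by the root-mean-square difference of the centred log2 values. The 3 nearest to COL6A2 were UBTD1 (0.036), POLRMT (0.054) and RALGDS (0.065), whereas COL6A2 itself varied by 0.606 around its mean. For COL6A1 they were SULT1A1 (0.098), TBKBP1 and ZNF444, and for COL1A1 PLEKHB1 (0.081), RCOR2 and ANKRD13D. COL12A1 was closest to LINC00431 (0.079), SLC35D2 and ARHGAP29, and FN1 to SLC35A5 (0.081), TMX4 and DHFR2. COL5A2 was closest to ZNF701 (0.067), MYO10 and TRAPPC10. For COL5A1, IFFO1 (0.269), PRRC2A (0.343) and RAB34 (0.444) came first. These distances are larger, but COL5A1 itself varied more than the other members searched, by 2.31 around its mean. The distances were not scaled to that variation, so they do not rank the members by likeness. None of these 7 members was among the 3 nearest genes of another, and COL1A2, COL3A1 and COL6A3, with means under 50, were not searched.

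The other genes that serve the same matrix were counted beside the members. Over all genes tested 5.07% were called, 253 higher and 1093 lower, and no list was tested against that share. The list of 27 other collagens left out the type IV, XV and XVIII chains. Of the 27, 24 were tested, 3 were called lower and none higher, with a median log2 difference of 0.17 over the 24. COL25A1, a membrane-spanning collagen, had at most 2 reads in a GOLPH3 library and 165, 172 and 230 normalized reads in Vector, at least 58.7-fold lower than the Vector mean when the limit of 3 reads in a library is used (adjusted p = 1.95e-05 from limma). COL23A1, also membrane-spanning, was at least 5.02-fold lower (adjusted p = 0.0167 from limma), and COL14A1, which like type XII collagen binds along fibrils, differed by -3.10 on the log2 scale (adjusted p = 0.0328 from limma). The Vector libraries by themselves carried COL25A1 and COL23A1 past the filter, and both drop out with the filter in every library. COL27A1 and COL9A3, the collagens of this list with the highest levels per kilobase, differed by 0.43 and 1.68 and did not pass (adjusted p = 0.539 and 0.0940 from limma).

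Genes that fold and export collagen act in the endoplasmic reticulum. All 24 were tested and 2 were called lower, where 5.07% of all genes tested were called. They were COLGALT2, a collagen galactosyltransferase (log2 difference -3.93, adjusted p = 0.00362 from limma), and CREB3L1, a transcription factor of collagen-secreting cells (-3.0, adjusted p = 0.0411). The median was -0.16. P4HB, a subunit of the collagen prolyl hydroxylase, and PPIB, a prolyl isomerase, had the highest levels per kilobase of this list and differed by 0.72 and 0.32 (adjusted p = 0.213 and 0.623 from limma). COLGALT2 had 7.51, 8.25 and 4.27 normalized reads in GOLPH3 and 178, 36.1 and 218 in Vector, the same order of Vector libraries as COL5A1.

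Of 27 genes for procollagen processing, cross-linking and fibril partners, 23 were tested, with a median of -0.34. Of these, 4 were called lower and 2 higher, against 5.07% of all genes tested. ADAMTS3, a procollagen peptidase, had no read in GOLPH3 and 115, 52.6 and 143 normalized reads in Vector, at least 32.2-fold lower (adjusted p = 3.09e-05 from limma). It met the filter through the Vector libraries alone, so it could only be called lower, and its p-value is no separate support. FBN2, a microfibril protein, differed by -5.26 (adjusted p = 5.32e-05) and SPARC, a collagen-binding matrix protein, by -3.21 (adjusted p = 0.00477). The 2 called higher were ADAMTS14, a relative of ADAMTS3 (1.55, adjusted p = 0.0301 from limma), and TNXB, a tenascin (2.59, adjusted p = 0.0410), both named after their values were seen. Neither call held with the filter in every library or without GOLPH3 replicate 3 or Vector replicate 1 or 2. BMP1, which cleaves the C-propeptide of fibrillar procollagens, and LOXL2, a cross-linking enzyme, differed by 0.97 and 1.33 and did not pass (adjusted p = 0.131 and 0.0748).

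Among 20 receptors for collagen and fibronectin, 19 were tested, with a median of 0.11. Of these, 2 were called lower and 1 higher, against 5.07% of all genes tested. ITGA4 and ITGA8, integrin chains that bind fibronectin, were at least 28.5-fold and at least 14.0-fold lower in GOLPH3 (adjusted p = 5.55e-05 and 0.00287 from limma), with at most 1 and 3 reads in a GOLPH3 library. The Vector libraries by themselves carried both past the filter. With the filter in every library both dropped out, and none of the 16 receptors then tested was called. ITGB5, an integrin chain that pairs with ITGAV, was higher by 1.25 (adjusted p = 0.0479). That call was lost with a pseudocount of 0.1, quantile normalization, the replicate block or the filter in every library, and without GOLPH3 replicate 2 or 3 or Vector replicate 1 or 3. ITGB1, the shared chain of the main collagen and fibronectin receptors, differed by 0.65 and SDC4, a proteoglycan that binds fibronectin, by 0.15 (adjusted p = 0.328 and 0.927 from limma). Over these 4 lists, 9 of the 11 genes called lower (81.8%) had the Vector libraries in the order seen in COL5A1, against 61.9% of all genes called lower. Both shares are over genes picked as lower from these same Vector values, and the share over all genes tested was not computed. With 11 genes, from lists chosen with earlier results known, the shares are not read as different. The part of this order in their differences was not tested.

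**Figure D4:**
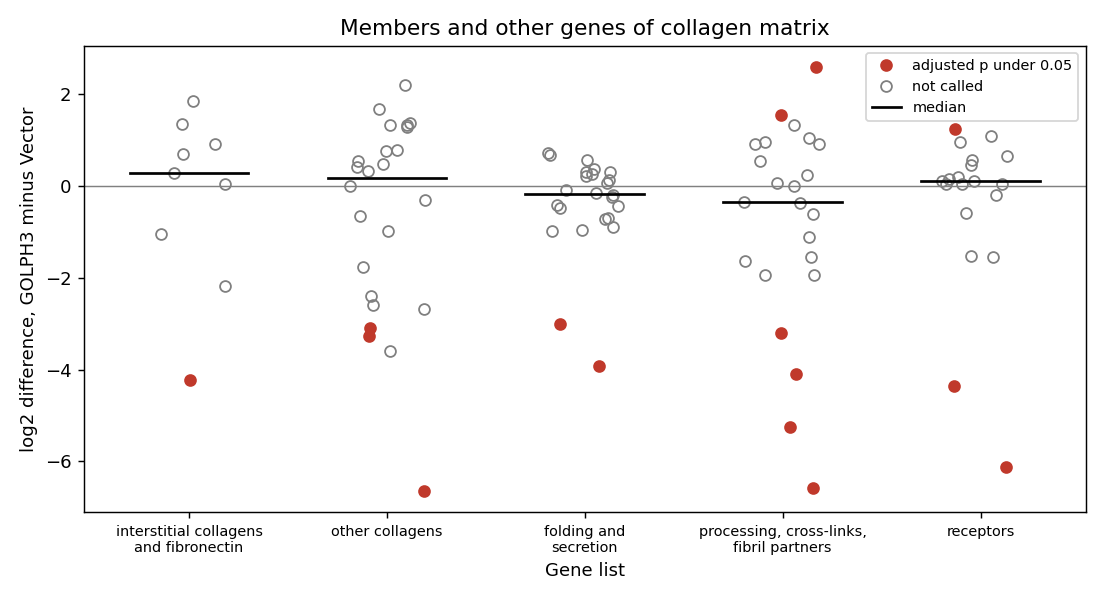
Difference of each gene tested, GOLPH3 minus Vector on log2(normalized reads + 1), in the 5 gene lists, with filled red points for an adjusted p under 0.05 from limma, open points for genes not called, bars at the medians and points spread sideways at random. The medians lie between -0.34 and 0.28, and most of the called genes lie below -3.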

How the data were processed

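RNA of 3 libraries labelled GOLPH3 and 3 labelled Vector was sequenced. The authors deposited a table of 60590 rows for 60546 gene identifiers (44 second rows were added to the first) with a signal per library, and every nonzero value was a whole multiple, within a tolerance of 0.1, of a step between 0.8246 and 1.0955, so the deposited signal is whole reads divided by a size factor. The submitters' processing notes name fastp 0.20.0, HISAT2 2.1.0, Cufflinks, featureCounts 1.6.1, DESeq2 and GRCh38. The annotation release and the strand setting of the counting are not given in the sources used here. Coordinates and exon lengths were taken from GENCODE 29 (58367 identifiers matched, 96.4%).

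The groups were compared on log2(value + 1) by limma 3.58.1 (R 4.3.3) with an intensity trend in the prior variance. Genes needed a value of 1 or more in 3 or more libraries, and the threshold was a Benjamini-Hochberg adjusted p of 0.05. For single values an exact two-sided permutation test over the 6 libraries was used, whose smallest p is 0.1. DESeq2 1.42.0 and edgeR 4.0.16 were run on the recovered reads as alternatives, and the fits were tested on simulated data. The simulation gave every gene the same dispersion between libraries, so it does not show how the fits perform on libraries that differ as these do. The precision follows from the depth, and 3 reads were taken as the floor of detection. The chi-square per degree of freedom between libraries of a group was at least 74.92, so each counted as a sample.

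The members and gene lists were chosen with earlier results of these data known. Named are all members, GOLPH3, from each other list the 3 called genes with the smallest p and the 2 with the highest mean per kilobase, and the 3 genes most like each member with a mean of at least 50. Promoters are those of RefSeq (GRCh38.p14), found for 5 of the 10 members.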

Additional observations from a re-analysis of the deposited data

How the results depend on the processing

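With 3 libraries a group and Vector libraries that differ widely, counts of calls moved with the settings, while the fall of COL5A1 passed in all 15 alternatives. Over all genes (1346 called, 253 higher and 1093 lower) the count was 6082 with the number after P as a block, 2399 with it as a covariate, 405 with a filter in every library, 3776 at an unadjusted p with a log2 difference over 1, and 459 (without Vector replicate 1) to 1528 when each library was left out. It was 481 without Vector replicate 3, 895 without Vector replicate 2 and 881 without GOLPH3 replicate 3. DESeq2 split its 1991 calls into 603 higher and 1388 lower. For the members (1 called) the count was 7 with the P block, 5 unadjusted, 3 with DESeq2, and 2 each with the P covariate, no filter and the replicate block, and it stayed at 1 when each library was left out. For the other collagens (3 called) it was 12 with the P block, 7 with the P covariate, 6 with DESeq2, 13 unadjusted, 0 with a filter in every library (where 12 rather than 24 were tested) and 1 (without Vector replicate 1 or GOLPH3 replicate 3) to 5 (without GOLPH3 replicate 1) with a library left out. For folding and secretion (2 called) it was 9 with the P block, 4 with the P covariate, 1 each with edgeR, the stricter filter, a pseudocount of 0.1 and quantile normalization, and 1 (without Vector replicate 1 or 3 or GOLPH3 replicate 2) to 3 with a library left out. For processing and partners (6 called) it was 15 with the P block, 11 with the P covariate, 13 unadjusted, 3 with the stricter filter and 2 (without Vector replicate 1; 3 without Vector replicate 3) to 8 with a library left out. For receptors (3 called) it was 10 with the P block, 6 with DESeq2 and unadjusted, 5 with the P covariate and 0 with the stricter filter. With the longest transcript as length, 2 members in GOLPH3 and 3 in Vector changed place in the order of levels. The log2 difference of COL6A1 (0.05) reversed to -0.028 under quantile normalization, -0.24 with the P block, -0.26 without GOLPH3 replicate 3 and -0.29 without Vector replicate 2, in a range up to 0.43. Apart from the narrower tests of the stricter filter, the cause of these shifts was not tested. Libraries with the same replicate number correlated at -0.23, -0.15 and 0.26 in their deviations from the group means, so the replicate numbers were not taken to pair them. The 2 pairs that share the number after P both correlated at 0.26, too few pairs to decide. The replicate block called 1081 genes in all.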

Other observations

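Chains that can stand beside the members in the same collagens were looked at after their values were seen. COL5A3, the other chain of type V collagen, had 20.4, 41.2 and 50.2 normalized reads in GOLPH3 and 16.5, 10.96 and 12.9 in Vector. Its groups did not overlap, but the log2 difference of 1.33 did not pass (adjusted p = 0.217 from limma), and COL5A1 differed in the opposite direction. COL6A5, a later chain of type VI collagen, was at 0 in all 3 libraries labelled GOLPH3 and had 45.3, 1.10 and 17.2 normalized reads in Vector (adjusted p = 0.0581 from limma). COL6A6 had 4.29, 0 and 0 in GOLPH3 and 6.18, 8.76 and 15.4 in Vector (adjusted p = 0.0881 from limma). The Vector libraries by themselves carried COL6A5 and COL6A6 past the filter. COL6A5 could therefore only come out lower, and its p-value is no separate support. COL7A1, the anchoring-fibril collagen, had 378, 283 and 511 normalized reads in GOLPH3 and 92.6, 108 and 302 in Vector, so the groups overlapped (log2 difference 1.38, adjusted p = 0.1204 from limma). DDR1, a collagen-binding receptor kinase, is listed at 0 in all 6 libraries, which is not read as absence of its transcript, since the annotation release and strand setting of the counting are not given in the sources used here.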
